A study of Mus musculus with 29 samples.

Results

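The comparison described here is that of livers from mice given a low dose of rosiglitazone with a high-fat diet against livers from mice given the same diet alone. The arrays were chosen by their titles alone, the 6 of the rosiglitazone group (cHF+R) and the 7 of the diet control (cHF), which makes 13 of the 29 arrays of the series. All mice were C57BL/6N males of 3 months that had eaten chow, and both groups then had free access for 7 weeks to a corn-oil high-fat diet (cHF). The drug was the only labelled difference between the 2 groups, and the labels call its dose low without giving an amount. The other 16 arrays, 8 of cHF+PC and 8 of cHF+PC+R, came from mice whose cHF diet had about 7% of its lipid replaced by omega-3 phospholipids (PC) that carry EPA and DHA, without and with the drug. No group stayed on a low-fat diet, so every comparison is among mice on the high-fat diet. Each Agilent array measured 1 liver in Cy5 against a common Cy3 pool of all samples, and a value below is the log2 ratio of the liver to that pool. Per the series' design text, the authors had left out 1 array of the diet group and 1 of the drug group before normalization.

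Rosiglitazone is a thiazolidinedione that activates PPAR-gamma, a nuclear receptor. The receptor binds DNA as a pair with RXR and drives lipid storage genes in adipocytes, where it is most abundant. Hepatocytes hold less of it in lean animals and more in fatty liver, and there its targets include genes of the lipid droplet and of fatty acid uptake. The related receptor PPAR-alpha is the main form in hepatocytes and controls fatty acid oxidation in peroxisomes and mitochondria, and the microsomal Cyp4a enzymes. Both receptors recognise similar DNA elements, a direct repeat with a single spacer base.

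Of the 43020 spots that were not controls, between 55.0% and 62.5% were well above background in Cy5 on 12 of the 13 arrays and 80.8% on cHF replicate 4, which stood apart. Log ratios of 2 livers correlated with a median r of 0.439 within cHF, 0.377 within cHF+R and 0.207 between the groups, as a description across genes. All 16 hepatocyte markers listed were measured. The number of arrays limits the precision, with a median standard error (SE) of 0.062 on the log2 scale over the 19465 genes tested. Without that array, 479 genes in place of 607 passed the test given next. Of the 8 slides used, 5 carried 1 array of each group. Of the 566 genes that passed and had values on all 5, 477 (84.3%) differed in the same direction within every slide. Of the genes that did not pass, 9.04% did so. Both sets were formed by the difference on these same arrays, so the shares are a description. With the slide as a block 583 genes passed, and 8 of 81 named calls were lost, among them Acot2, Cpt1b, Eci1, Vnn1, Gstm2, Trib3 and Serpina1c.

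Of these 19465 genes, 607 (3.12%) differed between cHF+R and cHF at an adjusted p under 0.05 (limma, Benjamini-Hochberg over all genes), 394 higher (2.02%) and 213 lower (1.09%) with the drug. The words rose and fell are used below only of genes that passed this test, and differences are cHF+R minus cHF on the log2 scale with their SE. Most differences were small. At least 1.5-fold were 113 of the risen and 24 of the fallen genes, and at least 2-fold 47 and 9. The values of the 2 groups did not overlap for 239 genes that were higher (1.23% of 19369 with values to compare) and 160 that were lower (0.826%). The number of calls depended on the normalization between arrays, with 81 genes under median centring in place of loess and 70 when the arrays were also scaled to 1 spread. The risen genes made up 64.9% of the 607, 93.8% under median centring, 85.7% with scaling and 39.4% in the authors' deposited table. Of 81 named genes that passed, 30 did so under median centring and 17 with scaling. Scaling lost the calls of Cfd, Cidec, Plin4, Cd36, Fabp5, Gpat3, Cyp4a10 and Anxa2, among others. The calls of Ehhadh and Acot1 were lost under both settings, whereas Lpl, Acaa1b and Gprc5b kept theirs. Median centring also moved the median of all genes from 0.014 to 0.152.

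The lipid droplet genes that rose were Cidec, Plin4 and Abhd5, 3 of 19 measured on that list, and none fell (median difference 0.23). Cidec codes for the protein that lets lipid droplets exchange lipid and grow. Its lowest, median and highest log2 ratios were -2.92, -1.07 and -0.062 in cHF and 0.081, 1.50 and 1.90 in cHF+R. Every drug-treated liver thus lay above every control. The difference was 2.47 ± 0.491, 5.56-fold (adjusted p = 0.00268), and a second Cidec probe gave 1.64 ± 0.350; the main probe lies at chr6:113374630-113374689 in mm9. Plin4, a coat protein of the droplet, ran from -2.50 to -0.75 in cHF and from 0.19 to 1.76 in cHF+R, again without overlap, a difference of 2.32 ± 0.383 (adjusted p = 0.000367). Abhd5, the co-activator of the droplet's triglyceride lipase, rose less, by 0.46 ± 0.113 (adjusted p = 0.0191). For Abhd5, cHF+R replicate 6 at -0.091 lay inside the control range. Plin2, the most general droplet coat protein of hepatocytes, had a difference of 0.23 ± 0.184 that did not pass (adjusted p = 0.608). In whole liver, more RNA per cell and more cells of a type cannot be told apart for these or any other genes here.

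**Figure D1:**
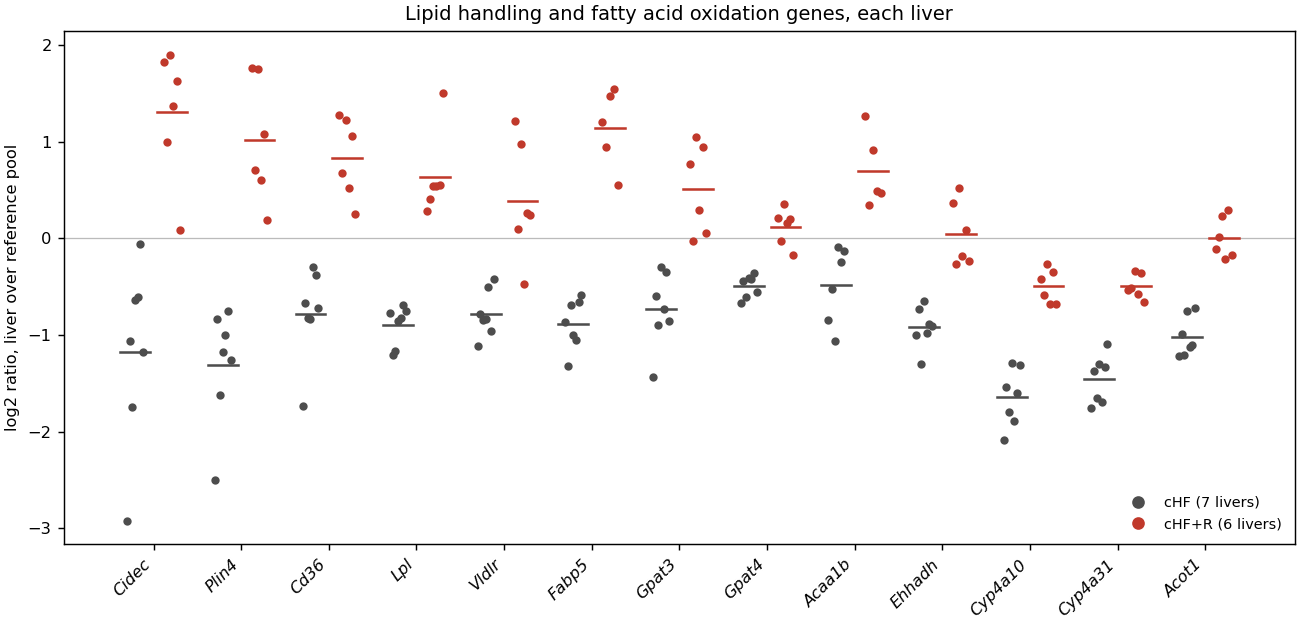
Log2 ratio of each liver to the reference pool (vertical axis) for 13 genes of lipid uptake, storage and oxidation (horizontal axis), with cHF livers in grey, cHF+R livers in red and a bar at each group's mean. The groups do not overlap for Cidec, Plin4, Cd36, Lpl, Fabp5, Gpat3, Gpat4, Acaa1b, Ehhadh, Cyp4a10, Cyp4a31 and Acot1, and they overlap for Vldlr.

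On the list of fatty acid uptake and binding, 4 of 19 measured genes rose and 2 fell. Cd36, a membrane carrier of fatty acids, had its lowest, median and highest value at -1.73, -0.72 and -0.29 in cHF and 0.26, 0.86 and 1.28 in cHF+R. The groups were separate, and the difference was 1.61 ± 0.241 (adjusted p = 0.000111). Lpl, lipoprotein lipase, which frees fatty acids from circulating triglyceride, ran from -1.20 to -0.69 in cHF and from 0.28 to 1.50 with the drug. It rose by 1.53 ± 0.216 (adjusted p = 5.56e-05), and a second probe gave 1.05 ± 0.159. The highest Lpl value belonged to cHF+R replicate 6 (1.50), the liver that was lowest of its group for each of the 15 largest rises. Vldlr, a receptor for triglyceride-rich lipoproteins, rose by 1.17 ± 0.187 (adjusted p = 0.000263), with cHF+R replicate 4 inside the control range at -0.48. Its second probe gave 0.39 ± 0.094.

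Fabp5 codes for a fatty acid binding protein of the cytosol best known from skin and fat. Its values were -1.32, -0.87 and -0.59 in cHF and 0.55, 1.21 and 1.55 in cHF+R, where 5 of 6 arrays gave a value. The groups did not overlap, and the difference was 2.03 ± 0.262 (adjusted p = 2.16e-05). The probes named Gm6100 and Fabp5l2, both near copies of Fabp5 in the genome, rose by 2.06 ± 0.249 and 2.25 ± 0.269. The Gm6100 probe shares a stretch of 50 of its 60 bases with the Fabp5 probe, so the signals of that pair cannot be told apart. The Fabp5l2 probe shares a stretch of only 8 bases with the Fabp5 probe, but it was not compared with the whole Fabp5 transcript. Whether its rise is a separate measurement was not tested. Mfsd2a is the carrier of lysophosphatidylcholine that bears long-chain omega-3 fatty acids. It had the largest fall among the genes that passed with values on at least 5 arrays of each group. It ran from 0.21 to 1.04 in cHF and from -3.09 to 0.62 in cHF+R, with replicate 3 within the control range and replicate 6 the lowest. The difference was -1.81 ± 0.410 (adjusted p = 0.00971). The Mfsd2a call was lost under median centring and with scaling, with an adjusted p of up to 0.247. Fabp2 fell as well, by 0.53 ± 0.145 (adjusted p = 0.0402). Fabp1, the main fatty acid binding protein of hepatocytes, had a difference of -0.35 ± 0.133 that did not pass (adjusted p = 0.182).

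Of 16 genes of triglyceride synthesis, 3 rose and none fell (median 0.20). All 3 act in the first acylation steps from glycerol phosphate. Gpat3 ran from -1.43 to -0.29 in cHF and from -0.023 to 1.05 in cHF+R, a difference of 1.25 ± 0.206 (adjusted p = 0.000365). Gpat4, a second acyltransferase of the endoplasmic reticulum for the same step, rose by 0.62 ± 0.0836 (adjusted p = 3.81e-05), again without overlap. Agpat2, which adds the next acyl chain, rose by 0.56 ± 0.160 (adjusted p = 0.0497), a call lost when any of 11 single arrays was left out, with an adjusted p of up to 0.133. Mogat1, an acyltransferase of the monoacylglycerol route, had a difference of 0.44 ± 0.332 that did not pass (adjusted p = 0.571).

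Of 17 genes of fatty acid synthesis, desaturation and elongation, 1 rose and 1 fell (median 0.17). Scd1, the desaturase that makes oleate and palmitoleate, had values of -1.97, -0.67 and 0.28 in cHF and -0.29, 0.84 and 2.38 in cHF+R, with overlapping groups. Livers 1 and 3 of cHF+R were the highest (2.38 and 2.20). The difference of 1.86 ± 0.482 (adjusted p = 0.0260) was lost on leaving out any one of replicates 1, 2 and 3 of cHF and 1, 3 and 5 of cHF+R (adjusted p up to 0.0844). Elovl2, which elongates polyunsaturated fatty acids, fell by 0.42 ± 0.111 (adjusted p = 0.0280), a call lost without any of 6 single arrays. The synthesis genes Fasn (0.31 ± 0.292), Acacb (0.77 ± 0.268) and Srebf1 (0.065 ± 0.166) did not pass the test.

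Fatty acid oxidation genes changed in part. On the peroxisomal list, 5 of 26 measured genes rose, among them Ehhadh, Acaa1a, Acaa1b and Abcd2, and Pecr fell (median 0.083). Ehhadh, which catalyses the middle reactions of the peroxisomal cycle, had values of -1.30, -0.91 and -0.64 in cHF and -0.27, -0.046 and 0.52 in cHF+R, a difference of 0.97 ± 0.122 (adjusted p = 1.47e-05) without overlap. The thiolases that close the cycle, Acaa1b and Acaa1a, rose by 1.18 ± 0.171 and 0.53 ± 0.103 (adjusted p = 0.000103 and 0.00232). Pecr, an enoyl-CoA reductase, fell by 0.34 ± 0.0659 (adjusted p = 0.00242), and under median centring its difference was 0.051, on the other side of zero. Of 21 thioesterases and acyl-CoA synthetases, Acot1, Acot5 and Acot2 rose, by 1.02 ± 0.164, 0.73 ± 0.133 and 0.43 ± 0.123, the last with adjusted p = 0.0495 and lost without any of 8 single arrays. A second Acot5 probe gave 0.22 ± 0.083 and did not pass (adjusted p over probes = 0.179).

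In mitochondria, 3 of 18 genes of beta-oxidation rose and none fell (median 0.0061). Acadm, the medium-chain dehydrogenase, rose by 0.65 ± 0.106 (adjusted p = 0.000510), with values on 4 of 6 cHF+R arrays. The smaller rises of Cpt1b (0.30 ± 0.0787) and Eci1 (0.37 ± 0.104) were lost without any of 5 and 11 single arrays (adjusted p up to 0.0931 and 0.182). Cpt1a, the liver form of the carnitine shuttle's entry enzyme, had a difference of -0.31 ± 0.0885 (adjusted p = 0.0515). Of 14 genes of ketogenesis and the fasting response, Pdk4 and Vnn1 rose and Creb3l3 fell. Pdk4, which restrains glucose oxidation, rose by 1.06 ± 0.282 (adjusted p = 0.0320), and Vnn1, a pantetheinase, by 1.07 ± 0.268 (adjusted p = 0.0220). Both calls were lost without single arrays, any of 7 for Pdk4 and, for Vnn1, replicate 1 of cHF or replicate 1 or 3 of cHF+R; the Vnn1 call was also lost with the slide as a block. Creb3l3, a transcription factor of the fasting liver, fell by 0.35 ± 0.0813 (adjusted p = 0.0133). On leaving out replicate 1 of cHF+R the adjusted p was 0.0651, and median centring gave 0.040. Fgf21, a hormone of fasting (0.26 ± 0.564, adjusted p = 0.882), did not pass.

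The Cyp4a enzymes hydroxylate the far end of fatty acids. Of 14 omega-hydroxylase genes of the Cyp4a and Cyp4f families, 5 rose and none fell (median 0.20). Cyp4a10 had values of -2.08, -1.60 and -1.29 in cHF and -0.68, -0.50 and -0.26 in cHF+R, and the highest control lay below the lowest drug-treated liver. Its difference was 1.15 ± 0.162 (adjusted p = 5.56e-05). Cyp4a31 and Cyp4a32 rose by 0.96 ± 0.139 and 0.91 ± 0.132, also without overlap. Cyp4f16 rose by 0.32 ± 0.0588 (adjusted p = 0.00120). Cyp4a14 passed on values from only 2 cHF and 4 cHF+R arrays, because many of its spots carried outlier marks. With those spots kept, it ran from -4.10 to -1.30 in cHF and from -0.58 to 0.12 in cHF+R, a difference of 2.13 ± 0.332 (adjusted p = 0.000187). The male-specific Cyp4a12a (0.24 ± 0.247, adjusted p = 0.709) did not pass. The probes of Cyp4a10 (chr4:115198463-115198522) and Cyp4a31 (chr4:115243923-115243982, both mm9, plus strand) are shown because they lie at the same place of 2 similar coding sequences and agree in 54 of 60 bases, with the 6 differing bases in capitals. The signals of these genes therefore cannot be fully told apart.
Cyp4a10: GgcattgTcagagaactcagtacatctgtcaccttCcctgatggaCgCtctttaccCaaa
Cyp4a31: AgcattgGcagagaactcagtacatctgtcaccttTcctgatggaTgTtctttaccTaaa

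The receptors themselves did not pass the test. None of 17 PPAR and RXR receptors and coactivators rose or fell (median 0.10, range -0.33 to 0.27). Pparg, the target of the drug, had values of -0.0020, 0.58 and 0.66 in cHF and -0.42, 0.18 and 0.59 in cHF+R, with overlapping groups. The difference was -0.33 ± 0.196 (adjusted p = 0.451). Ppara gave -0.046 ± 0.127 (adjusted p = 0.912), and its coactivator Ppargc1a 0.19 ± 0.106 (adjusted p = 0.404).

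Genes best known from fat cells were uneven between livers. Of 11 adipocyte markers measured, Cfd, Otop1, Fabp4, Retn and Cox8b rose and none fell (median 0.68). Otop1 and Cox8b met the detection filter mainly through the cHF+R arrays, so the size of their difference rests on controls that were mostly not well above background. Cfd, the serine protease adipsin, had the largest rise among the genes that passed with values on at least 5 arrays of each group. Its values were -4.65, -3.35 and -2.46 in cHF and -1.26, 1.11 and 2.95 in cHF+R, and the groups did not overlap (4.51 ± 0.835, 22.8-fold, adjusted p = 0.00149). The Cfd call was lost with scaling between arrays and with an intensity trend in eBayes. Among the drug-treated livers, replicate 1 stood at 2.95, replicate 3 at 2.00, replicate 5 at 1.51, replicate 2 at 0.70, replicate 4 at -0.011 and replicate 6 at -1.26. Cidea, a droplet protein of brown fat, spread wider still, with 2.96, 2.83 and 1.94 in replicates 1, 3 and 5, and -4.66 in replicate 6, below every control. Its difference of 3.28 ± 0.949 did not pass (adjusted p = 0.0530).

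Otop1, a proton channel of brown fat, ran from -2.21 to -0.69 in cHF and from -1.62 to 3.30 in cHF+R, and was well above background on 2 of 7 and 6 of 6 arrays. The difference of 2.34 ± 0.594 (adjusted p = 0.0228) did not pass when replicate 1, 3 or 5 of cHF+R was left out. A second Otop1 probe gave 0.39 ± 0.134 and did not pass (adjusted p over probes = 0.125). Fabp4, the fatty acid binding protein of adipocytes and macrophages, ran from -0.81 to -0.27 and from -0.50 to 2.18, with replicates 3 and 1 highest. It rose by 1.27 ± 0.307 (adjusted p = 0.0167), but not when replicate 1 or replicate 3 of cHF+R was left out (adjusted p up to 0.0604). Retn (0.65 ± 0.185, adjusted p = 0.0456) and Cox8b (0.48 ± 0.128, adjusted p = 0.0308) rose less, and those calls were lost without any of 9 and 5 single arrays. Cox8b was well above background on 1 of 7 cHF and 5 of 6 cHF+R arrays. Adig (1.61 ± 0.494), Adrb3 (0.68 ± 0.337), Aqp7 (0.14 ± 0.0812), Slc2a4 (0.081 ± 0.0692) and Sncg (0.035 ± 0.0568) did not pass.

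**Figure D2:**
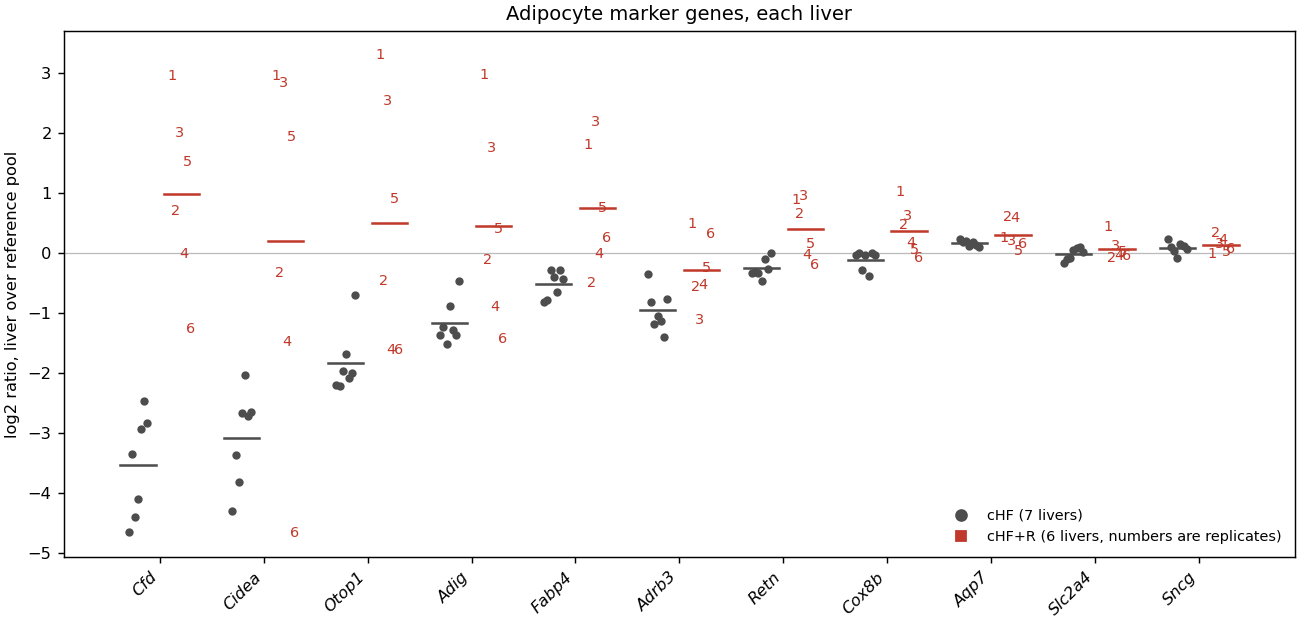
Log2 ratio of each liver to the reference pool (vertical axis) for the 11 adipocyte markers tested (horizontal axis, ordered by difference). Grey points are cHF livers, red digits give the replicate number of each cHF+R liver, and bars are group means. Replicates 1 and 3 are highest for Cfd, Cidea, Otop1, Adig and Fabp4, and replicate 6 is lowest for Cfd and Cidea.

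Defining adipocyte transcripts were near background. Adipoq was well above background on 1 of 7 cHF arrays and 0 of 6 cHF+R arrays, Lep on 0 and 0, and Plin1 on 1 and 1, so these genes were not tested. The mean log2 ratio over the 11 markers ranged from -1.25 to -0.70 in the cHF livers and from -0.77 to 1.55 in the cHF+R livers. Over the 11 markers, cHF+R replicate 1 was highest for 7 genes and replicate 6 lowest for 6. Of the 15 largest rises, which include Cfd and Otop1, cHF+R replicate 1 was highest for 10 genes, replicate 3 for 4 and replicate 5 for 1, while replicate 6 was lowest for all 15. The part of this spread between livers in the results was not tested. Leaving out replicate 6 gave 685 changed genes, and leaving out replicate 1 gave 456.

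Markers of the other liver cell types did not pass the test with 3 exceptions. Serpina1a and Serpina1c, 2 of 16 hepatocyte markers, fell by 0.35 ± 0.0825 and 0.34 ± 0.0878; under median centring their differences were 0.049 and 0.058, and the Serpina1c call was lost without any of 7 single arrays. Their probes share 47 of 60 bases and cannot be told apart. All 16 hepatocyte markers had negative differences (median -0.20). Under median centring their median was 0.058, where the median of all genes was 0.152. Alas2, 1 of 5 erythroid markers, fell by 0.42 ± 0.0960 (adjusted p = 0.0115). None passed among 16 Kupffer cell and macrophage markers (median 0.15), 14 stellate cell and matrix markers (0.17), 12 endothelial (0.056), 6 cholangiocyte (-0.015), 11 lymphocyte (0.041), 4 pancreatic acinar (-0.023) and 3 skeletal muscle markers (0.050). The per-liver mean of the macrophage list ranged from -0.29 to 0.15 in cHF and from -0.095 to 0.61 in cHF+R, and its part in the results was not tested.

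Most Cyp2c cytochromes fell. They are microsomal enzymes that oxidise drugs and arachidonic acid. Of 9 measured members, 6 fell and none rose, with a median of -0.97 (-0.71 under median centring and -1.25 with scaling). All 6 calls were lost under both of those settings, where their highest adjusted p lay between 0.314 and 0.672, and they held when any single array was left out. Cyp2c54 had values of -0.43, -0.038 and 0.26 in cHF and -2.12, -1.54 and -0.94 in cHF+R. No liver of one group reached the range of the other, and the difference was -1.41 ± 0.200 (adjusted p = 5.62e-05). Its neighbours on chromosome 19 fell likewise, Cyp2c50 by 1.19 ± 0.163 (adjusted p = 4.03e-05), Cyp2c37 by 1.17 ± 0.157 (adjusted p = 3.23e-05), Cyp2c39 by 0.97 ± 0.153 (adjusted p = 0.000225) and Cyp2c29 by 0.84 ± 0.174 (adjusted p = 0.00429). Each of them fell without overlap. Cyp2c38 fell by 1.17 ± 0.213 (adjusted p = 0.00113), but its second probe gave 0.072 ± 0.192. Cyp2c67 (-0.22 ± 0.182) and Cyp2c70 (-0.15 ± 0.275, with values on 3 cHF arrays) did not pass. Cyp2c55 had higher values in every cHF+R liver (from -0.095 to 0.26) than in any control (from -0.57 to -0.15), a difference of 0.48 ± 0.158 that did not pass either (adjusted p = 0.102). Among the 6 fallen members, cHF+R replicate 3 was the lowest liver for all 6 and replicate 2 the highest for 5.

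Some Cyp2c probes, further probes of Cyp2c54 and Cyp2c37 among them, are shown because Cyp2c transcripts resemble each other. Whether the 6 falls are separate measurements was not tested. For Cyp2c54, 2 further probes lie in the coding sequence and overlap by 42 bases, given in capitals. They fell by 1.17 ± 0.196 and 0.94 ± 0.176, beside 1.41 for the main probe.
Cyp2c54, further probe 1: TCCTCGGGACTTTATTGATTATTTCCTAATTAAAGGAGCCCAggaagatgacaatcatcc
Cyp2c54, further probe 2: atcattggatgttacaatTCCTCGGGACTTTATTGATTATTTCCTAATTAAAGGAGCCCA
The probe of Cyp2c29 (chr19:39403642-39403701 in mm9) and the second probe of Cyp2c37 (chr19:40084382-40084441, difference -1.04 ± 0.174) overlap in a homologous stretch of 31 bases, of which 27 agree; the 4 that differ are in capitals.
Cyp2c29: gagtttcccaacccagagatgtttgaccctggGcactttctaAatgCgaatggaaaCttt
Cyp2c37: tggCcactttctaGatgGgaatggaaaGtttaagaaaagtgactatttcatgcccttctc
The probe of Cyp2c39 (chr19:39642568-39642627) comes from another stretch of coding sequence.
Cyp2c39: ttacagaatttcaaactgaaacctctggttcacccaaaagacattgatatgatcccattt

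**Figure D3:**
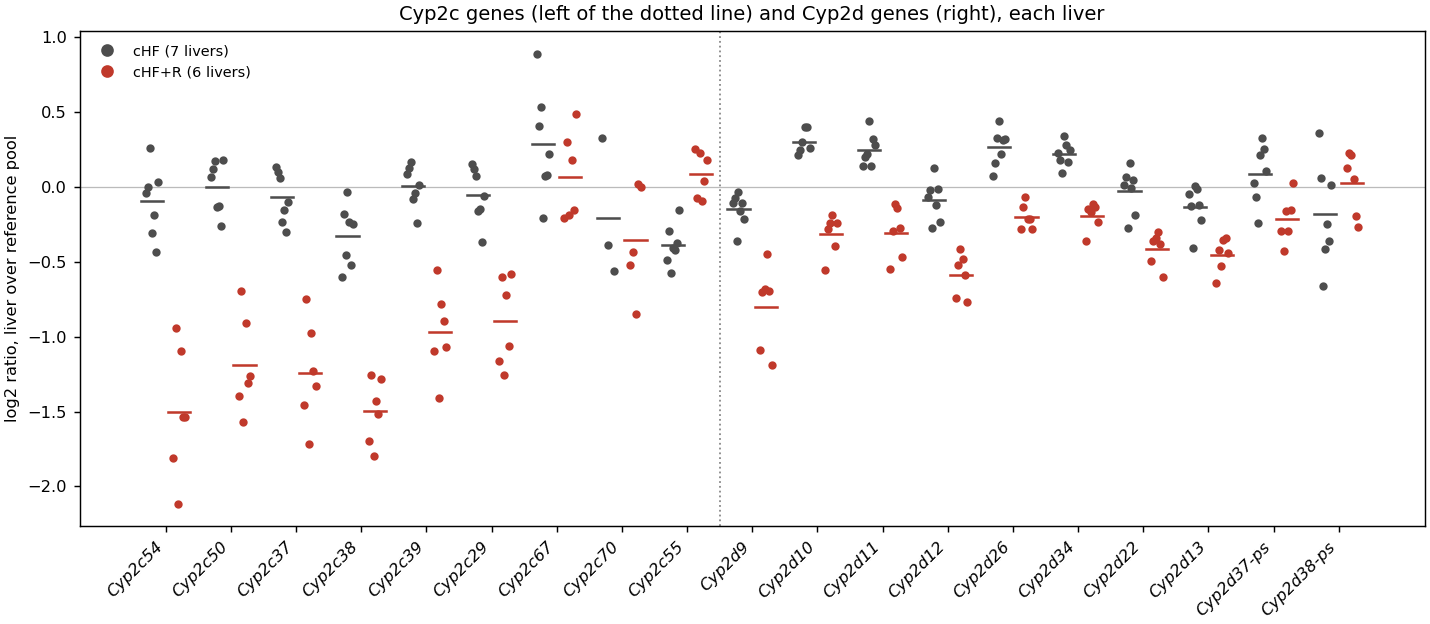
Log2 ratio of each liver to the reference pool (vertical axis) for 9 Cyp2c and 10 Cyp2d genes (horizontal axis, left and right of the dotted line), with cHF livers in grey, cHF+R livers in red and bars at the group means. The groups do not overlap for the 6 Cyp2c genes that fell, nor for 7 of the 8 Cyp2d genes that fell.

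The Cyp2d cytochromes of chromosome 15, another family of drug-oxidising enzymes, were added as a list after their values were seen. Of 10 measured, 8 fell and none rose, with a median of -0.44 (-0.11 under median centring, where the median of all genes was 0.152). Cyp2d10 had values of 0.21, 0.28 and 0.40 in cHF and -0.55, -0.26 and -0.18 in cHF+R, a difference of -0.62 ± 0.0667 (adjusted p = 1.76e-06) without overlap. Cyp2d9, which male mice express more than females, fell by 0.65 ± 0.0935 (adjusted p = 6.35e-05). The Cyp2d9 call was lost under median centring and with scaling, with an adjusted p of up to 0.672, and held when any single array was left out. Cyp2d11, Cyp2d12, Cyp2d26, Cyp2d34, Cyp2d22 and Cyp2d13 fell by between 0.32 and 0.55. The pseudogenes Cyp2d37-ps and Cyp2d38-ps did not pass. The Cyp2d probes were not compared with each other, so whether the 8 falls are separate measurements was not tested. Per-liver means over the list ranged from -0.13 to 0.17 in cHF and from -0.49 to -0.25 in cHF+R, with no overlap.

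Because PPAR-RXR pairs and other hepatic receptors bind a direct repeat with 1 spacer base, the 250 bases before the gene start were searched on both strands for AGGNCA repeated after any 1 base, which includes the stricter repeat of AGGTCA. The promoter table (RefSeq, GRCm38.p6) held 11738 of the 19465 tested genes. A match occurred in 0 of 217 risen genes with a promoter entry, in 5 of 153 fallen genes and in 0.400% of all tested genes with an entry (0.338% of 32851 entries). The 5 were Apoc2, Apol7c, Cyp2d9, Cyp2d10 and Entpd8, and the stricter form was found in Apol7c alone of the 607. A match is a description of these letters in this window and shows no binding. The Cyp2d9 and Cyp2d10 stretches are printed since both genes fell and carry the same 13 letters, given in capitals. They lie at chr15:82452127-82452376 (plus strand) and chr15:82407195-82407444 (minus strand) in GRCm38.p6 and are written in the direction of the gene. The match starts 54 bases before the start of Cyp2d9 and 57 before that of Cyp2d10.
Cyp2d9: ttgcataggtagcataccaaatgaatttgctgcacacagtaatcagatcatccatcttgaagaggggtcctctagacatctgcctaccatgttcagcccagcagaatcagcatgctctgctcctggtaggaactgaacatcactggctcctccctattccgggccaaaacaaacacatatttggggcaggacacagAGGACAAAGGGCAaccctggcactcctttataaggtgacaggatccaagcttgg
Cyp2d10: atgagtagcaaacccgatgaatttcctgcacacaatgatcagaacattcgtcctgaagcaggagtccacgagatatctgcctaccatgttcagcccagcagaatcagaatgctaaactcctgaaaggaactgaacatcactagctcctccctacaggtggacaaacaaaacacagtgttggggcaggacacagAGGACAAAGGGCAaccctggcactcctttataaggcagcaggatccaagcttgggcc

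Other xenobiotic genes moved both ways. Of 24 genes of PXR, CAR and their targets, Abcc4 and Gadd45b rose and Cyp3a25 and Gstm2 fell (median 0.068). Abcc4, an exporter on the blood side of hepatocytes, ran from -0.53 to -0.21 in cHF and from -0.019 to 1.45 in cHF+R, with livers 1 and 3 highest (1.05 ± 0.171, adjusted p = 0.000342). Gadd45b, a stress-response regulator, rose by 0.71 ± 0.148 (adjusted p = 0.00431). Cyp3a25 fell by 0.53 ± 0.122 (adjusted p = 0.0105) and Gstm2 by 0.59 ± 0.152 (adjusted p = 0.0249), the latter lost without any of 4 single arrays. The classic targets Cyp2b10 (0.78 ± 0.432) and Cyp3a11 (-0.37 ± 0.152) did not pass.

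Of 20 apolipoprotein and lipoprotein genes, 4 fell and 2 rose (median -0.049, and 0.28 under median centring). Pltp, which moves phospholipid between lipoproteins, ran from -0.59 to 0.21 in cHF and from -0.041 to 1.28 in cHF+R (0.88 ± 0.167, adjusted p = 0.00175). Sort1, a sorting receptor of apolipoprotein B, rose by 0.67 ± 0.0951 (adjusted p = 5.69e-05) without overlap. Apoc3 and Apoc2, an inhibitor and the activator of Lpl, fell by 0.39 ± 0.0727 (adjusted p = 0.00175) and 0.37 ± 0.0838 (adjusted p = 0.00970). Both calls were lost under median centring and scaling. A second Apoc3 probe gave 0.14 ± 0.119. Apoh and Apoc4 fell by 0.28 ± 0.0758 and 0.22 ± 0.0637. Cholesterol synthesis genes stayed below the threshold except Acat2, a thiolase, which fell by 0.31 ± 0.0582 (adjusted p = 0.00135), 1 of 24 measured (median -0.088).

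Of 20 genes of bile acid synthesis and transport, 2 fell and none rose (median -0.20). Under median centring the list's median was 0.070, where that of all genes was 0.152. Akr1d1, the reductase of the bile acid ring, fell by 0.62 ± 0.121 (adjusted p = 0.00242). Abcb4, the phospholipid exporter into bile, fell by 0.32 ± 0.0913 (adjusted p = 0.0454), a call lost without any of 9 single arrays and a difference of 0.020 under median centring. Cyp7a1, the first enzyme of the classic bile acid route, gave 0.63 ± 0.319 (adjusted p = 0.358), and Abcb11, the bile salt export pump, 0.064 ± 0.104 (adjusted p = 0.831).

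Of 22 genes of glucose metabolism and insulin signalling, none rose and 2 fell (median -0.12). Grb14, an inhibitor of the insulin receptor, fell by 0.33 ± 0.0799 (adjusted p = 0.0165), with values from 0.041 to 0.43 in cHF and from -0.31 to -0.0049 in cHF+R. On leaving out replicate 3 of cHF+R the adjusted p was 0.0509. Pck1 (-0.47 ± 0.337), G6pc (-0.22 ± 0.308) and Irs2 (0.43 ± 0.189) did not pass.

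Among the largest changes outside the lists, Gprc5b, an orphan receptor of the membrane, had values of -2.21, -1.71 and -0.63 in cHF and 0.41, 1.13 and 1.76 in cHF+R. Every drug-treated liver was above every control, by 2.81 ± 0.308 on average (adjusted p = 1.76e-06). Fam183b rose by 2.57 ± 0.336 (adjusted p = 2.16e-05), Serpinb1a, an inhibitor of neutrophil proteases, by 2.13 ± 0.337 (adjusted p = 0.000231), and Anxa2, a phospholipid-binding annexin, by 1.71 ± 0.263 (adjusted p = 0.000173). Rad51b, Sdcbp2 and Ifi27l2b rose by 2.00 ± 0.381, 1.99 ± 0.367 and 1.82 ± 0.321. A second Ifi27l2b probe gave 0.21 ± 0.088.

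The fall with the smallest adjusted p among these was that of Slc13a3, a carrier of dicarboxylates, with 0.15, 0.56 and 1.01 in cHF and -1.11, -0.86 and -0.42 in cHF+R. The ranges were separate (-1.38 ± 0.139, adjusted p = 1.08e-06; probe at chr2:165230796-165230855 in mm9). Sult1b1, a sulfotransferase, fell by 0.83 ± 0.118 (adjusted p = 5.56e-05), and Grin3b, Tnfaip8l1, Obp2a, Ncmap and Tlr12 fell by between 0.85 and 1.16. H2-Q1 fell by 1.02 ± 0.158 (adjusted p = 0.000185), the only 1 of 22 antigen presentation genes to pass; the related H2-Q2, H2-Q4, H2-Q5, H2-Q6, H2-Q7 and H2-Q8 had differences between -0.054 and 0.044. Of 20 acute phase genes, Apcs rose by 1.15 ± 0.187 (adjusted p = 0.000327), with cHF+R replicate 1 far above the rest at 2.20, and Saa4 fell by 0.42 ± 0.0840 (adjusted p = 0.00281). Trib3 (1.05 ± 0.289, adjusted p = 0.0406, lost without any of 10 single arrays) rose alone among 19 genes of endoplasmic reticulum and amino acid stress. Prdx1 rose by 0.20 ± 0.0501 among 15 antioxidant genes, lost without any of 2 single arrays (cHF replicate 3 and cHF+R replicate 1). Mup3 fell by 0.44 ± 0.111 with Cyp2d9 among 16 male-biased genes, lost without any of 3 (cHF replicate 1 and cHF+R replicates 1 and 5), and none of 9 female-biased and 15 clock genes passed.

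**Figure D4:**
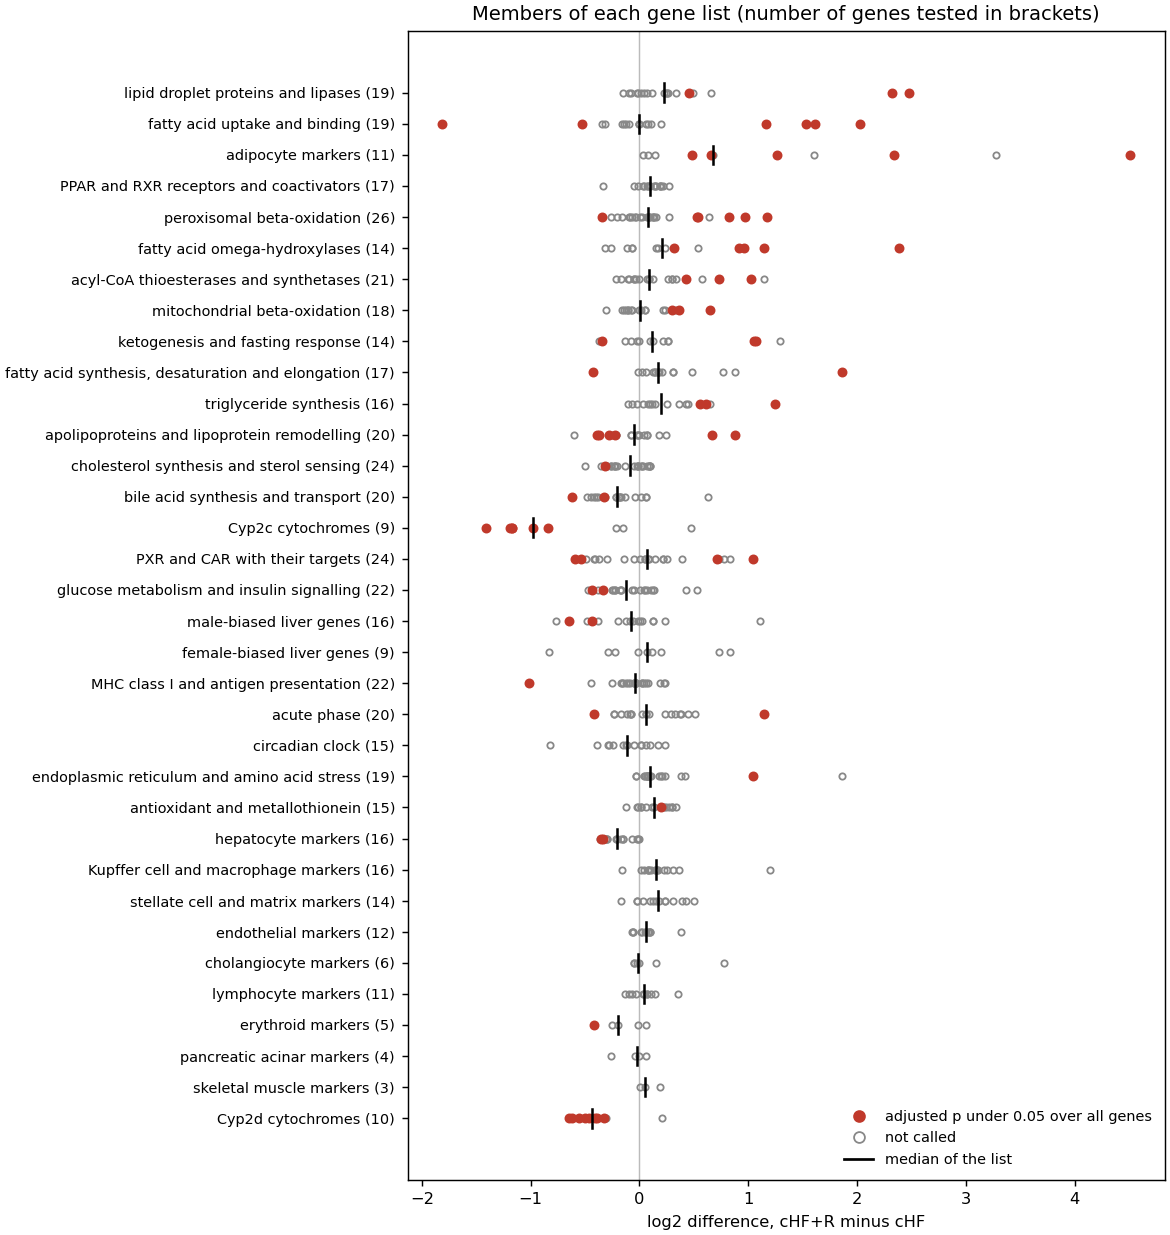
Log2 difference of cHF+R minus cHF (horizontal axis) of every tested member of each gene list (vertical axis, with the number of genes). Filled red circles passed at an adjusted p under 0.05, open circles did not, and the black tick is the list's median. The median of all genes is 0.014. The adipocyte markers have 0.68, the Cyp2c genes -0.97 and the Cyp2d genes -0.44, and the medians of the other lists lie between -0.20 and 0.23.

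The same drug was also given with omega-3 phospholipids, and those 16 livers form a second comparison (cHF+PC+R minus cHF+PC) that shares no liver with the first, although it shares the reference pool, the slides and the estimate of spread. There, 26 genes (0.134%) passed, 23 higher (0.118%) and 3 lower (0.0154%), and all 26 had changed in the same direction without phospholipids. Of the 607 genes, 563 (92.8%) had a difference of the same sign with phospholipids, against 60% of the genes that had not passed. At an unadjusted p under 0.05, 289 of the 607 differed in the same direction and 0 in the other, where 8.53% of all genes passed in either direction. Plin4 gave 2.18 ± 0.344 (adjusted p = 0.00263) and Cidec 2.06 ± 0.441 (adjusted p = 0.0489). Gprc5b, Serpinb1a, Anxa2, Lpl and Cd36 were also among the 26, with 1.69, 1.49, 1.12, 1.06 and 1.05, as were the falls of Slc13a3 (-0.60), Alas2 (-0.41) and Agmat (-0.31).

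Taken in the direction of the first comparison, the difference with phospholipids was smaller or of the other sign for 601 of the 607 genes. The median in that direction was 0.33 without phospholipids and 0.12 with them. The same rule counted 14872 of all 19465 genes tested and 14271 of the 18858 that had not passed. It takes in every difference of the other sign, whatever its size, which were 7591 and 7547. These counts therefore do not measure size alone. Since the 607 genes had been chosen for their size in the first comparison, the count of 601 is a description. The interaction itself passed for 0 genes in limma (lowest adjusted p = 0.155), with 1291 genes (6.63%) at an unadjusted p under 0.05, 332 of them among the 607. The interaction contains the cHF+R minus cHF difference by which the 607 were chosen, so the count of 332 is a description too. Cyp2c54 gave -0.18 ± 0.179 with phospholipids, against -1.41 without (interaction adjusted p = 0.198). Fabp5 gave 0.38 ± 0.224 against 2.03 (0.167), Fam183b 0.66 ± 0.302 against 2.57 (0.276) and Otop1 -0.20 ± 0.534 against 2.34 (0.607). The median over the 11 adipocyte markers was 0.11 with phospholipids, and over the 9 Cyp2c genes -0.14. For none of these genes did the test show that the effect differed between the diets. Cfd gave 2.62 ± 0.777 with phospholipids and did not pass there (adjusted p = 0.226), with values from -4.96 to 2.84 on 7 cHF+PC+R arrays.

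**Figure D5:**
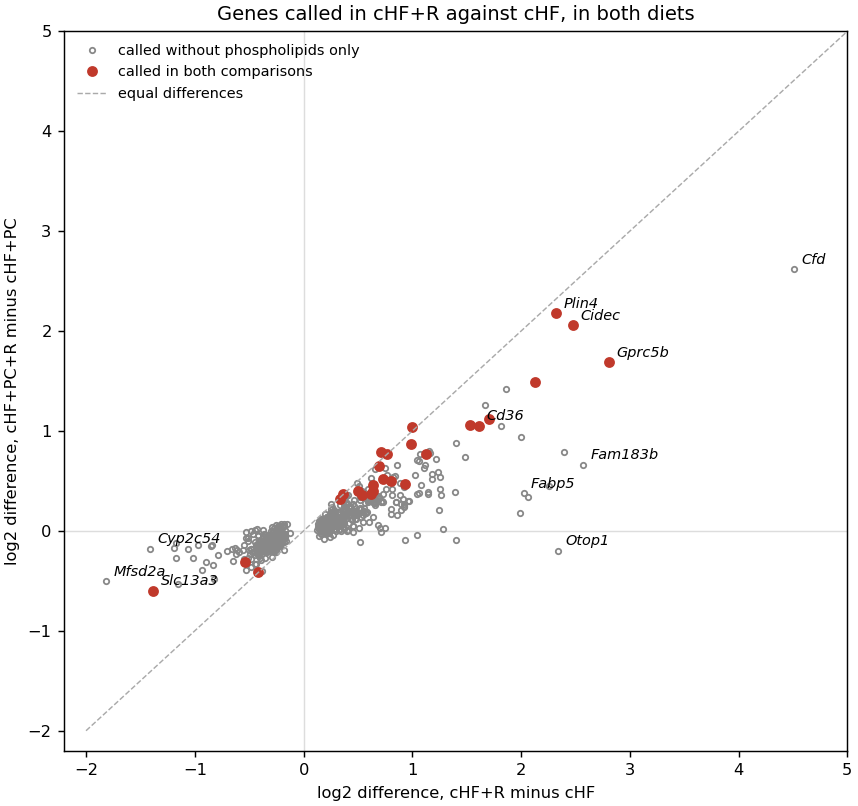
Log2 difference made by rosiglitazone without phospholipids (horizontal axis, cHF+R minus cHF) and with them (vertical axis, cHF+PC+R minus cHF+PC) for the 607 genes that passed in the first comparison. Filled circles are the 26 genes that passed in both, and the dashed line marks equal differences. Of the 607, 563 have the same sign on both axes. For 601 of the 607 the difference with phospholipids is smaller or of the other sign. The same holds for 14872 of all 19465 genes tested.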

How the data were processed

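Per the file headers, the deposited scanner output gives linear intensity per spot with its local background, extracted with Agilent Feature Extraction 10.5.1.1 (also per the submitters' processing notes). A further table that the authors deposited gives log2 values of 25806 probes, with a median of 9.03 in every column. Its columns followed their own array's log2 Cy5 intensity (r between 0.990 and 0.999). With each probe centred, all 29 columns matched the log ratios of their own array best. Its normalization is not given in the sources at hand.

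Mean intensities were corrected with normexp (offset 50) and normalized within arrays by loess in limma 3.58.1 (R 4.3.3). Control and outlier-marked spots were left out, and spots of a probe were averaged. Kept probes had Cy5 flagged as well above background on 6 or more arrays and a value on 20 or more. These were 23932 of 39429 probes. A gene is its probe of highest mean intensity (19465 genes; 3538 keep the file's name, the others were named through RefSeq tables of GRCm38.p6). Probe positions are those in the files (mm9).

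limma (lmFit, eBayes) fitted 4 group means to all 29 arrays, two-sided, with Benjamini-Hochberg adjustment. Replicate numbers did not pair the livers (r between -0.23 and 0.26 for the 6 shared numbers). The 13 arrays lay on 8 slides. Other background corrections, normalizations, detection filters, probe rules, blocks and array weights, and each array left out, were tried as alternatives. The comparison and the 33 gene lists were chosen with earlier results of these data known. The rule names the 15 largest rises and falls with values on at least 5 arrays of each group, up to 4 members a list with the smallest adjusted p, all adipocyte and Cyp2c genes, and a set of lipid and glucose genes. Other genes named were chosen after their values were seen. Single values of a few genes are not reported here. On simulated data for this comparison (19465 genes), 93 of 100 changes of 0.5 and 98 of 100 changes of 1 on the log2 scale were recovered, and 7 unchanged genes passed.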

Additional observations from a re-analysis of the deposited data

Results flagged for a closer look

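Of 219 sets of livers tested (each named gene in each group), 15 held a liver far from the others of its group by Dixon's criterion, and chance gives about 1 in 20. Replicate 6 of cHF+R was that liver for 4 genes, low for Grin3b (-1.31), Abhd5 (-0.091) and Acacb (-0.68) and high for Lpl (1.50). Replicate 1 of cHF+R stood out for Tnfaip8l1 (-1.19), Creb3l3 (-0.58) and Apcs (2.20), and replicate 2 for Acat2 (-0.10). Among the controls, cHF replicate 7 was high for Gprc5b (-0.63), Otop1 (-0.69) and Sdcbp2 (-0.38). In cHF replicate 3, Pecr (-0.31) and Agpat2 (-0.74) were low and Apoc2 (0.49) was high, and Cd36 was low in cHF replicate 1 (-1.73).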

How the results depend on the processing

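The 607 genes of cHF+R against cHF became 81 under median centring (93.8% higher, against 64.9%), 70 with scaling between arrays (85.7% higher) and 302 with quantile-normalized Cy5 alone. The authors' deposited table gave 599, of which 39.4% were higher. All other settings gave between 510 and 799, and leaving out 1 array gave 456 (without cHF+R replicate 1) to 685 (without cHF+R replicate 6). Of the 81 named genes that passed, 60 kept their call whichever of the 13 arrays was left out and 12 under every setting run. Under median centring the sign turned for Pecr (0.051), Creb3l3 (0.040), Abcb4 (0.020), Serpina1a (0.049) and Serpina1c (0.058). These values stayed below the median of all genes under that setting, 0.152.

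The 26 genes of cHF+PC+R against cHF+PC became 81 without background subtraction, 56 with Feature Extraction's processed signals, 2 under median centring, 5 with scaling, 61 in the deposited table, 11 with only the compared arrays and 163 with array weights. Leaving out 1 array gave 13 (without cHF+PC+R replicate 3) to 56 (without cHF+PC+R replicate 2). The interaction gave 3 genes with array weights and 0 to 4 when 1 array was left out, the 4 without cHF+PC+R replicate 6; a fit of only the compared arrays is the same fit there, as all groups enter it. With the replicate number as a block the counts were 584, 21 and 0, and 9 of the 81 named calls were lost, Pdk4 among them. Keeping the spots marked as outliers, chosen after seeing the data, gave 637, 30 and 0. The cause of these changes was not tested. Signal over background limits dim genes: Otop1 was well above background on 2 of 7 cHF arrays.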

Other observations

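Further genes with related roles passed the test in cHF+R against cHF and were picked after their values were seen, so they are listed without any test of a group. Of the retinol dehydrogenases, Rdh9 rose by 0.98 ± 0.185 (adjusted p = 0.00162) and Rdh16 by 0.77 ± 0.203 (adjusted p = 0.0291). The Rdh9 values ran from -0.90 to -0.33 in cHF and from -0.57 to 0.75 in cHF+R and overlapped. Rdh7 fell by 0.29 ± 0.0702 (adjusted p = 0.0167). Idh2, Pgd and G6pdx, whose enzymes yield NADPH, rose by 0.50 ± 0.0705 (adjusted p = 5.69e-05), 0.47 ± 0.132 (adjusted p = 0.0440) and 0.35 ± 0.0856 (adjusted p = 0.0185). Me1, another such gene, gave 0.88 ± 0.302 and did not pass (adjusted p = 0.121). Vegfb, a growth factor tied to fatty acid uptake, ran from -0.18 to 0.014 in cHF and from 0.31 to 0.63 in cHF+R and rose by 0.54 ± 0.0589 (adjusted p = 1.76e-06). Fabp3, the heart form of the fatty acid binding proteins, rose by 0.93 ± 0.219 (adjusted p = 0.0129), and Slc22a5, the carnitine carrier, by 0.39 ± 0.104 (adjusted p = 0.0295).

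Among smaller falls were those of Parp9 by 0.27 ± 0.0619 (adjusted p = 0.0105), its partner Dtx3l by 0.29 ± 0.0580 (adjusted p = 0.00352) and Oas1c by 0.32 ± 0.0717 (adjusted p = 0.00902). The growth hormone receptor Ghr fell by 0.32 ± 0.0810 (adjusted p = 0.0220) and Hsd11b1, which regenerates active glucocorticoid, by 0.41 ± 0.0696 (adjusted p = 0.000511). Of 165 tested genes whose names start with Rpl or Rps and a number, 17 rose and 0 fell. Over all genes tested, 2.02% rose and 1.09% fell. The 165 were matched by name alone, so some may not code for ribosomal proteins. The rises lay between 0.14 and 0.26, and 12 of the 17 genes are named as pseudogenes. The median over all 165 was 0.095, against 0.014 over all genes. Probes of such pseudogenes can bind the parent transcript, so these are not 17 separate measurements.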
